A study of Arabidopsis thaliana with 24 samples.

Results

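The 5 genes described here belong to the plant lipid transfer protein family: AT2G10940, AT5G48490, AT2G37870, AT4G33550 and AT5G01870. Their signals were followed through a day of osmotic stress in Arabidopsis shoots and roots. Each of the 5 genes was read by 1 probe set that names that gene alone, out of 22746 probe sets other than controls, 13513 of which name exactly 1 gene (13355 genes in all). The genes were chosen by their signals on these arrays. AT2G10940 and AT5G48490 were selected on their fall in shoots, AT2G37870 and AT4G33550 on their rise in roots, and AT5G01870 on its high signal in roots against shoots. Values in the tissue that selected a gene, and every comparison of roots with shoots, are therefore given as a description without a test. Tests are given only in the other tissue: roots for the first pair, shoots for the other 3. Their spread was taken from the arrays of both tissues. For AT5G01870 the low shoot signal was part of the choice, so its shoot tests are not independent of that choice.

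The plants were Arabidopsis thaliana of the accession Col-0, 16 days old, in growth medium brought to 300 mM mannitol, an osmotic agent that lowers the water available to roots, starting 3 h after lights on in 16 h days. Shoots and roots were taken after 0.5, 1, 3, 6, 12 and 24 h, which gives 12 groups of 2 arrays, 24 in all, and every group had been in mannitol, including the 0.5 h groups used as the reference. No untreated plants are part of these comparisons, so a change is one over time in mannitol. Clock time nearly matched between 0.5 h and 24 h, and at the other times hours in mannitol and time of day cannot be told apart.

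Lipid transfer proteins are small secreted proteins whose conserved cysteines hold together a fold with an inner cavity that can take up a fatty acid or another lipid. They are known for carrying lipids toward the cuticle of leaves and stems and the suberin layer of roots, and for roles in defence signalling, as with DIR1, which is needed for a systemic immune signal. The same superfamily holds the 2S albumins of seeds and proteins with a proline-rich stretch ahead of the lipid transfer domain. AT2G10940 encodes a protein of the proline-rich kind. AT5G48490 is a DIR1-like gene and the direct neighbour of DIR1 (AT5G48485) in the TAIR10.1 gene table; DIR1 is not reported here. AT2G37870 and AT4G33550 encode small proteins of the superfamily, and AT5G01870 encodes a type 1 lipid transfer protein, the classical small basic form.

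The arrays of a group correlated over probe sets with Pearson's r from 0.979 to 0.985 in log2, and the median signal of an array lay between 31.4 and 48.3 array units. Precision is limited by the small number of arrays, and nothing in the labels states that paired arrays came from separate cultures, so p-values measure the spread between these samples, which may be technical. Markers fitted the tissue labels. All 7 green tissue markers were measured, and their summed signal ran from 13568 to 32483 in shoots and from 355 to 1058 in roots. Of 7 root markers 4 were measured, with sums from 3629 to 5694 in roots and from 216 to 1042 in shoots; apart from PYK10, a beta-glucosidase gene, no root marker exceeded 24.9 in shoots. The green marker sum moved within shoots as well, from between 28711 and 32483 at 0.5 h to between 13568 and 13888 at 12 h and between 14604 and 18389 at 24 h. The ratio of the 3' to the 5' actin control probe sets, a sign of RNA quality, went from 6.77 ± 0.499 (SD, n = 2) at 0.5 h to 16.7 ± 3.21 at 24 h in shoots, and its root group means lay between 11.1 and 12.3. A second actin design moved less in shoots (2.42 to 2.57), as did GAPDH (1.35 to 1.57). The part of these shifts in the results on shoots was not tested.

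In shoots AT2G10940 and AT5G48490 went from high to low signals within a day, with 24 h means at the 44.7 and 42.3 percentile of their arrays. AT2G10940 gave 1894 and 2065 array units on the 2 shoot arrays at 0.5 h and 1660 and 1302 at 1 h. The 3 h arrays read 190.05 and 313, those of 6 h 76.1 and 61.3, those of 12 h 36.4 and 60.1 and those of 24 h 2.75 and 47.3. Each time lay below the one before it on both arrays, except that the arrays of 12 and 24 h overlapped. The mean went from 1979.9 ± 121 at 0.5 h to 25.0 ± 31.5 (SD, n = 2) at 24 h, which is 79.1 times lower. On the scale of log2(signal + 7.72), which understates changes of weak signals, the changes from 0.5 h at the 5 later times were -0.43, -2.98, -4.71, -5.18 and -6.37, each with an SE of 0.48. The 24 h value rests on unlike arrays: leaving out replicate 1 of shoots at 24 h gave -5.17 and leaving out replicate 2 gave -7.57. The largest step was the one between 1 and 3 h, at -2.55.

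AT5G48490, the DIR1-like gene, gave 1371 and 1226 units in shoots at 0.5 h and was already at 424 and 626 after 1 h. It stood at 213 and 180 at 3 h, at 72.6 and 38.1 at 6 h, at 17.8 and 17.7 at 12 h and at 9.96 and 33.9 at 24 h. Here too successive times did not overlap up to 12 h, and the 24 h arrays lay on either side of the 12 h arrays. The changes from 0.5 h were -1.32, -2.68, -4.43, -5.68 and -5.59 at 1, 3, 6, 12 and 24 h (SE 0.30), with a 24 h mean of 21.9 ± 16.9 that was 59.3 times below the 0.5 h mean; leaving out either 24 h array gave -4.97 and -6.21. Its course differed in shape from that of AT2G10940: AT5G48490 lost between 1.25 and 1.75 in each of the first 4 steps and nothing in the last (0.09), whereas AT2G10940 lost 0.43 in the first. No test was made of that difference, since both genes were chosen by these shoot values. For scale, 8.80% of 16814 tested probe sets passed in shoots at 1 h, and the middle 90% of all changes in shoots at 24 h ran from -1.81 to 1.81. In whole organs a loss of cells that express a gene and less RNA per cell cannot be told apart.

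In roots both genes were dim at every time. They met the filter on low signal only through shoots (AT2G10940 on 11 arrays and AT5G48490 on 9), and their root group means ranked no higher than the 23.6 and 31.7 percentile of their arrays. The root tests therefore run on values near background and say little on whether the genes changed there. AT2G10940 gave 15.5 and 10.7 units in roots at 0.5 h and between 0.429 and 6.32 on the 10 later root arrays, all of them below the added constant of 7.72. Both arrays were lower than both 0.5 h arrays at every later time. From 1 h to 12 h the changes were -1.06, -0.86, -1.21 and -1.10, followed by -0.76 ± 0.48 (SE) at 24 h, with adjusted p from limma of 0.368, 0.2, 0.0574, 0.0792 and 0.22. The 95% interval at 24 h ran from -1.76 to 0.25. None of these passed. The side of the threshold depended on the fit. The main fit takes its spread from all 24 arrays, among them the unlike shoot arrays of 24 h (2.75 and 47.3 units). These belong to the tissue that selected the gene. With root arrays alone the adjusted p was 0.021, 0.00265, 0.00388 and 0.0236 from 3 h to 24 h. With no constant added it was 0.0135 after 6 h and 0.0266 after 12 h. With the later arrays below the constant, neither outcome gives a size for the change.

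AT5G48490 was also low in roots, at 19.9 and 17.3 units at 0.5 h, 10.3 and 9.07 at 1 h and 12.3 and 12.1 at 3 h. Later arrays read 16.2 and 11.7 at 6 h, 11.1 and 14.3 at 12 h and 19.4 and 15.8 at 24 h. The arrays from 1 to 12 h were all below those of 0.5 h, and the 24 h arrays overlapped them. The changes were -0.60, -0.40, -0.29 and -0.37 at 1, 3, 6 and 12 h (limma adjusted p 0.448, 0.366, 0.499 and 0.363). At 24 h the change was -0.06 ± 0.30 (SE; limma adjusted p = 0.899), with a 95% interval from -0.70 to 0.58, and its sign depended on the scaling of the arrays (0.05 under median scaling and 0.09 under quantile normalization). Of these 2 dim genes 0 passed in roots at 1, 3, 6, 12 or 24 h, where 0.737%, 24.1%, 33.9%, 37.7% and 40.8% of all tested probe sets passed. Of all tested probe sets 17.0% passed as higher and 23.8% as lower in roots at 24 h.

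**Figure D1:**
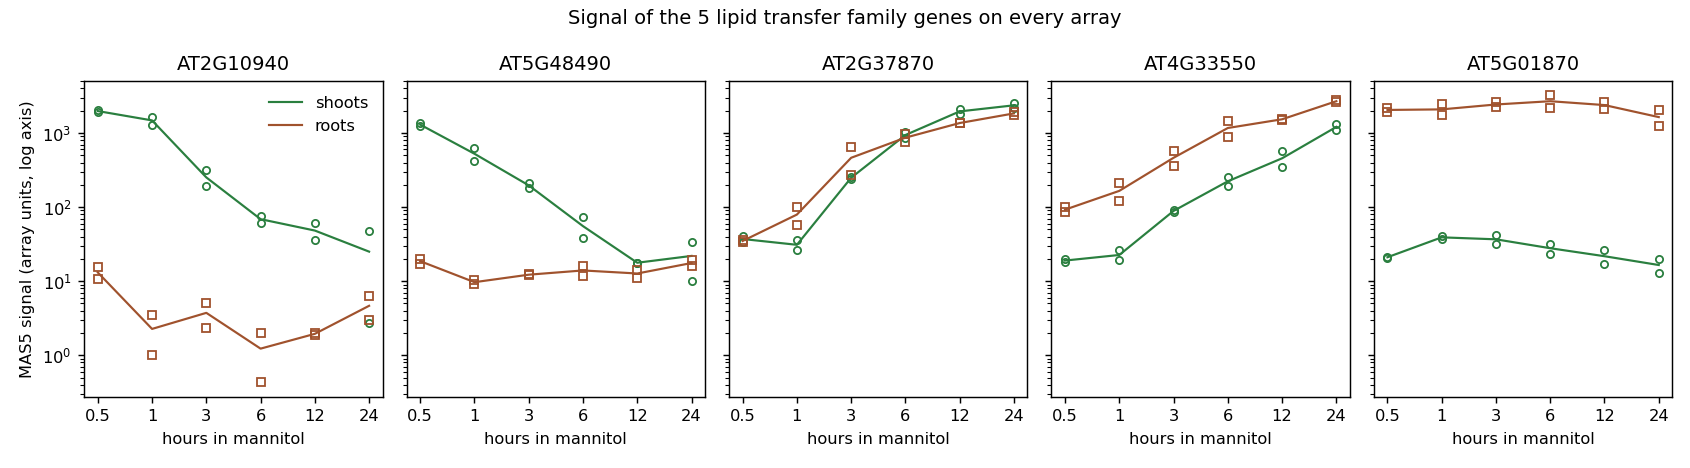
Signal of each gene on every array, in MAS5 array units on a log axis, against hours in mannitol (times evenly spaced), with shoots as circles, roots as squares and lines through the group means (n = 2). AT2G10940 and AT5G48490 came down in shoots from group means of 1979.9 and 1299 to 25.0 and 21.9, AT2G37870 and AT4G33550 climbed in both tissues, and AT5G01870 stayed above 1250 in roots and at or below 41.7 in shoots.

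AT2G37870 and AT4G33550, selected on their rise in roots, climbed step by step there. AT2G37870 gave 35.9 and 33.9 units in roots at 0.5 h, 57.6 and 101 at 1 h and 657 and 270 at 3 h. It reached 975 and 757 at 6 h, 1348 and 1380 at 12 h and 1779 and 1903 at 24 h. No 2 successive times overlapped. The changes were 0.98, 3.33, 4.35, 5.01 and 5.44 at 1, 3, 6, 12 and 24 h (SE 0.29), and the 24 h mean was 52.8 times the 0.5 h mean; the 3 h value was 2.70 or 3.96 on leaving out replicate 1 or 2 of that time. AT4G33550 started higher in roots, at 98.8 and 86.0 units, and gave 120 and 211 at 1 h, 568 and 358 at 3 h, 1457 and 882 at 6 h, 1545 and 1522 at 12 h and 2597 and 2781 at 24 h. It too showed no overlap between successive times, with changes of 0.74, 2.20, 3.51, 3.95 and 4.75 (SE 0.28) and a 24 h mean of 29.1 times its 0.5 h mean.

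Both genes rose in shoots as well, a tissue that the selection rule did not name for them. Earlier results of these data were known when the genes were chosen. AT2G37870 in shoots gave 33.6 and 40.6 units after 0.5 h, 35.9 and 26.0 after 1 h, and 241 and 257 after 3 h. The 6 h arrays read 861 and 1019.8, those of 12 h 2121 and 1797 and those of 24 h 2534 and 2201. The arrays of 0.5 and 1 h overlapped, and from 3 h on each time lay above the one before. It did not pass after 1 h (-0.22, limma adjusted p = 0.745). It then rose by 2.52 after 3 h (3.08e-06), 4.40 after 6 h (1.83e-09), 5.46 after 12 h (1.24e-10) and 5.73 ± 0.29 (SE) after 24 h (6.55e-11). The 95% interval at 24 h ran from 5.12 to 6.33, and the mean signal was 63.8 times that of 0.5 h.

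AT4G33550 had little signal in shoots at first, with 19.8 and 18.2 units at 0.5 h and 26.1 and 19.0 at 1 h. It gave 90.9 and 86.7 at 3 h, 195 and 251 at 6 h, 567 and 345 at 12 h and 1317 and 1102 at 24 h. Again the first 2 times overlapped and each later time lay above the one before. It did not pass after 1 h (0.17, limma adjusted p = 0.803) and rose by 1.86 after 3 h (5.43e-05), 3.10 after 6 h (7.35e-08), 4.08 after 12 h (2.14e-09) and 5.51 ± 0.28 (SE) after 24 h (6.55e-11), with a 95% interval from 4.92 to 6.09 at 24 h. The gene was still climbing between 12 and 24 h, by 1.43, where AT2G37870 gained 0.27.

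AT5G01870, the type 1 gene, was high in roots throughout and moved little in either tissue. In roots it gave 1898 and 2203 units at 0.5 h, 2445 and 1728 at 1 h and 2214 and 2645 at 3 h. At the later times it gave 3223 and 2155 at 6 h, 2649 and 2121 at 12 h and 2032 and 1250.3 at 24 h. The arrays overlapped those of 0.5 h at every time but 3 h, when both were higher, and the changes were 0.01, 0.24, 0.37, 0.21 and -0.36 at 1, 3, 6, 12 and 24 h (SE 0.25). The shoot arrays read 21.2 and 20.8 at 0.5 h, 40.7 and 37.4 at 1 h and 41.7 and 31.7 at 3 h. It came to 32.1 and 23.5 at 6 h, 17.0 and 26.4 at 12 h and 13.04 and 20.001 at 24 h. Both shoot arrays were thus above those of 0.5 h at 1, 3 and 6 h and below them at 24 h.

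None of these shoot changes of AT5G01870 passed. Its shoot signals were dim, with group means between the 37.3 and 49.5 percentile of their arrays. Low shoot signal was also part of its selection, so these tests say little. It stood at 0.70 after 1 h (limma adjusted p = 0.099), 0.62 after 3 h (0.0627), 0.30 after 6 h (0.353), 0.02 after 12 h (0.966) and -0.26 ± 0.25 (SE) after 24 h (0.385). Its 95% interval ran from 0.18 to 1.23 at 1 h, before adjustment over all probe sets, and from -0.79 to 0.26 at 24 h. The 3 h change passed under median scaling (0.67, adjusted p 0.0326), under quantile normalization (0.70, 0.0469) and with no constant added (0.79, 0.0406). Of the 3 genes tested in shoots, 0 passed at 1 h and 2, AT2G37870 and AT4G33550, at each of 3, 6, 12 and 24 h. Among all tested probe sets the share passing in shoots was 35.6% after 3 h, 48.1% after 6 h, 53.0% after 12 h and 58.6% after 24 h (25.4% higher and 33.2% lower). The comparisons within a tissue share the 0.5 h arrays, so the values at successive times are not independent of each other.

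**Figure D2:**
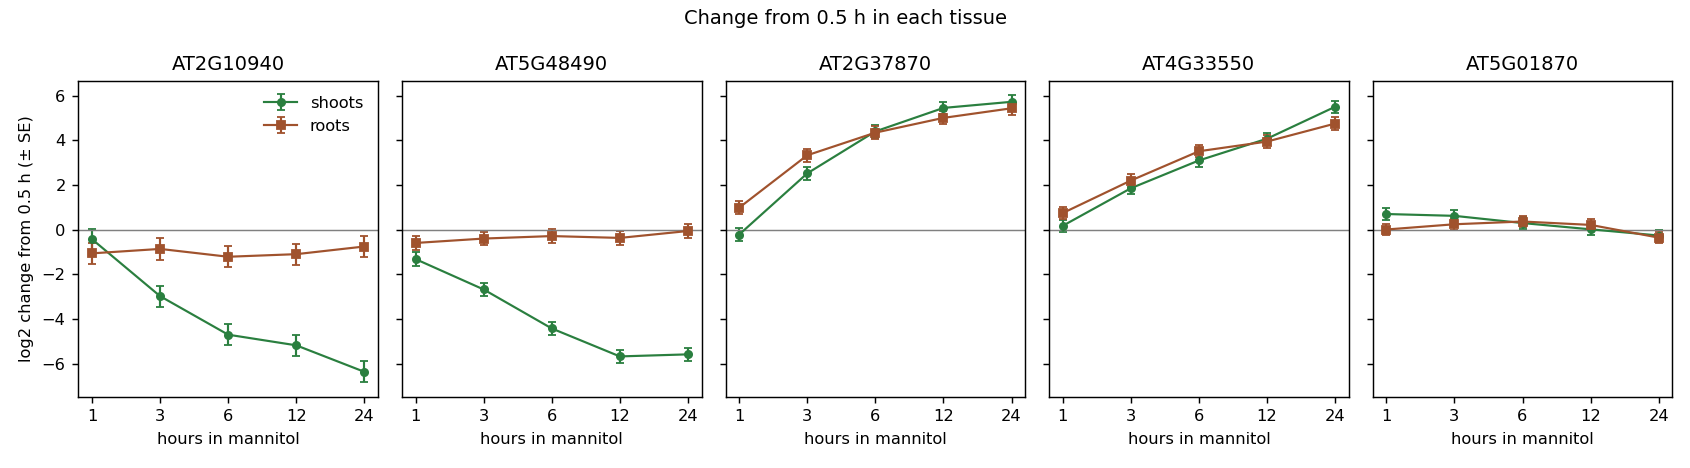
Change from 0.5 h in log2(signal + 7.72) at 1, 3, 6, 12 and 24 h for each gene, shoots as circles and roots as squares, with bars of 1 SE from limma. AT2G37870 and AT4G33550 climbed to 5.73 and 5.51 in shoots and to 5.44 and 4.75 in roots at 24 h. For AT2G37870 the root changes at 1 and 3 h were 0.98 and 3.33 beside -0.22 and 2.52 in shoots. Without replicate 1 of roots at 3 h its root change was 2.70. For AT4G33550 they were 0.74 and 2.20 beside 0.17 and 1.86 (SE 0.28). These tissue differences were not tested. AT2G10940 and AT5G48490 reached -6.37 and -5.59 in shoots beside -0.76 and -0.06 in roots. In roots both were dim from 0.5 h on (means of 13.1 and 18.6 units), so a like fall could not show there.

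Between the tissues, the genes selected on their fall in shoots ended the day with overlapping shoot and root arrays, while AT4G33550 and AT5G01870 stayed higher in roots on every array and AT2G37870 crossed over. The shoot mean of AT2G10940 was 151 times its root mean of 13.1 units at 0.5 h. At every later time its root mean lay below 7.72, so no ratio is given. On the log2(signal + 7.72) scale roots minus shoots went from -6.59 at 0.5 h to a wider -7.22 at 1 h. It then went to -4.47, -3.09, -2.50 and -0.97 at the 4 later times. The overlap of its arrays at 24 h comes from unlike shoot arrays, at 2.75 and 47.3 units beside 6.32 and 2.98 in roots. For AT5G48490 the shoot mean was 69.8 times the root mean at 0.5 h, 16.1 times at 3 h, 1.40 times at 12 h and 1.25 times at 24 h, with overlap at 24 h.

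The root and shoot arrays of AT2G37870 overlapped at 0.5 h (ratio of means 0.94). Its roots were ahead by 2.56 times at 1 h and 1.86 times at 3 h, the arrays overlapped at 6 h, and shoots were ahead by 1.44 times at 12 h and 1.29 times at 24 h. AT4G33550 kept the higher signal in roots on every array of every time, by 4.87 times at 0.5 h, 7.34 times at 1 h, 5.24 times at 6 h and 2.22 times at 24 h. AT5G01870 was between 53.4 times (1 h) and 110 times (12 h) higher in roots, with 97.4 times at 0.5 h and 99.3 times at 24 h. The green marker sum in roots also rose, from between 359 and 364 at 0.5 h to between 819 and 1058 at 24 h, and the part of this in the root values was not tested.

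**Figure D3:**
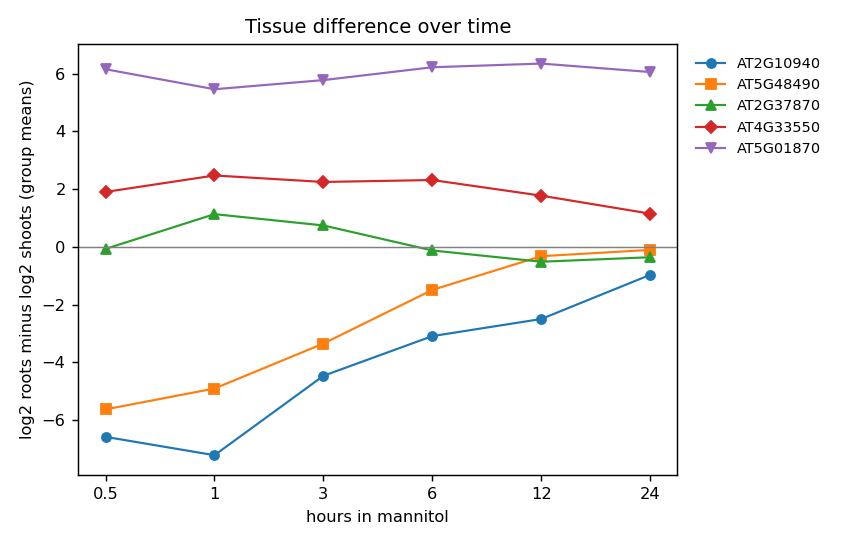
Difference between the tissues for each gene, log2(signal + 7.72) in roots minus shoots (group means, n = 2 arrays each), against hours in mannitol; 0 means equal signal. AT2G10940 went from -6.59 to -0.97 and AT5G48490 from -5.63 to -0.10, AT2G37870 crossed 0, AT4G33550 went from 1.904 to 1.152 and AT5G01870 stayed between 5.46 and 6.35.

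Across the 12 group means of log2 values the genes fell into pairs, given here as a description, since tissue, time in mannitol and time of day move all genes of a group together. The pairs are also those of the selection, on a fall in shoots and on a rise in roots. Their likeness in those tissues therefore follows in part from the choice. AT2G10940 and AT5G48490 had a Pearson's r of 0.97 with each other (0.98 within the 6 shoot groups, and 0.72 within the 6 root groups on dim signals). AT2G37870 and AT4G33550 had an r of 0.88, with 0.97 within shoots and 0.99 within roots. Within shoots the pairs ran opposite to each other, with an r of -0.99 between AT2G10940 and AT2G37870 and -0.96 between AT5G48490 and AT4G33550. AT5G01870 stood outside both pairs, with r between -0.74 and 0.43 to the other 4 genes over the 12 groups.

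Among 9205 other tested probe sets naming 1 gene, the profile over the 12 group means nearest to AT2G10940 was that of AT4G28780 (r 0.988), which encodes a GDSL-type lipase and went from 87.5 to 7.82 units in shoots between 0.5 and 24 h. Nearest to AT5G48490 was AT1G70985 (0.98), from 53.5 to 0.732 in shoots. The nearest to AT2G37870 were AT3G17520 (0.988), for a late embryogenesis abundant protein, from 0.686 to 4521 in shoots, and MGL (0.98), for methionine gamma-lyase, from 24.7 to 777. AT4G33550 was nearest to AT2G01600 (0.98) and TPP2 (0.98), for a large peptidase, which moved far less: TPP2 went from 521 to 928 in shoots and from 681 to 1026 in roots. AT5G01870 was nearest to AT1G61590 (0.996), for a protein kinase, with 157 units in roots and 1.52 in shoots at 0.5 h. Profiles with r over 0.9 numbered 381 for AT2G10940, 149 for AT5G48490, 85 for AT2G37870, 152 for AT4G33550 and 1100 for AT5G01870.

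The rest of the family was read against a list of 107 lipid transfer family genes, 48 of which had a probe set naming 1 gene and 27 of which passed the filter on low signal. Leaving out the 5 genes, 22 were tested. In shoots at 24 h, 7 of the 22 were higher, 7 lower and 8 did not pass, with a median change of -0.04 beside -0.12 over all tested probe sets. In roots at 24 h, 7 were higher, 4 lower and 11 did not pass, with a median of 0.25 beside -0.08. The share called was 63.6% in shoots and 50.0% in roots, beside 58.6% and 40.8% of all tested probe sets. The count in roots rests on single arrays: 6 passed, all higher, without roots 0.5 h replicate 2, and 7 (6 higher and 1 lower) without roots 24 h replicate 1.

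By subfamily, the proline-rich or hybrid genes, the group of AT2G10940, held more falls than rises. Of 7 tested beside AT2G10940, 5 fell and 1 rose in shoots at 24 h (median -1.505), and 3 fell and 1 rose in roots (median -0.80), where 33.2% and 23.8% of all tested probe sets fell. AT2G45180 fell in shoots by 2.87 ± 0.45 (SE; limma adjusted p = 3.1e-05), from 4477 ± 635 to 646 ± 328 units (SD, n = 2). In roots AT2G45180 fell by 1.58 ± 0.45 (adjusted p = 0.0097), a call lost on leaving out root replicate 2 of 0.5 h (-0.90, 0.186; -2.27 on leaving out replicate 1) or root replicate 1 of 24 h (0.0806). AT1G62500 fell by 1.59 ± 0.30 in shoots (adjusted p = 0.00023; leaving out either 0.5 h array gave -1.04 and -2.14) and by 0.80 ± 0.30 in roots (0.0446), and the root call was lost in 8 of the alternatives tried. AT4G22470 fell by 1.51 ± 0.36 in shoots (adjusted p = 0.00171). Unlike AT2G45180, these genes had weak shoot signals: AT1G62500 went from 50.7 ± 30.2 to 10.4 ± 1.73 units and AT4G22470 from 65.5 ± 22.2 to 18.0 ± 7.41.

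Further proline-rich genes were less certain, and their signals were weak by 24 h. AT4G12490 went from 106 ± 118 to 12.5 ± 7.81 units (SD, n = 2) in shoots. AT4G22460 went from 38.4 to 13.9 units in shoots and from 25.1 to 6.33 in roots, the last below the added constant. AT4G12490 was at -2.00 ± 0.66 in shoots (limma adjusted p = 0.0157), a call lost on leaving out shoot replicate 2 of 0.5 h (-0.65, 0.389; -3.34 on leaving out replicate 1) or shoot replicate 1 of 24 h (0.118). AT4G22460 was lower in shoots (-1.13, adjusted p = 0.0227) and in roots (-1.24, 0.0202), and lost the call in both tissues without the 0.5 h replicate 1 (0.133 and 0.0727) or the 24 h replicate 1 (0.205 and 0.129), among other alternatives. The exception to the falls was AT1G62510, which rose in roots by 4.26 ± 0.40 (adjusted p = 6.55e-07), from 15.8 ± 2.92 to 439 ± 11.7 units, and in shoots by 1.501 ± 0.40 (0.00364), from 1499 ± 114 to 4252 ± 76.8. AT1G62510 lies next to AT1G62500 in the gene table, so these neighbours moved in opposite directions in shoots. In roots their changes were opposite as well, though the root call on AT1G62500 was lost in several alternatives, as given above.

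The small and DIR1-like genes, the group of AT5G48490, AT2G37870 and AT4G33550, had 4 other tested members. Of these 4, 2 rose and 0 fell in each tissue at 24 h. AT5G55450 read at most 0.965 units in roots and AT5G13900 at most 16.3 in shoots, so a fall there could hardly pass. Of all tested probe sets 25.4% rose and 33.2% fell in shoots, and 17.0% rose and 23.8% fell in roots. AT3G53980 rose in shoots by 6.24 ± 0.27 (SE; limma adjusted p = 1.71e-11), from 22.1 ± 14.2 to 2112 ± 137 units (SD, n = 2), and in roots by 1.23 ± 0.27 (0.00162), from 1021 ± 34.2 to 2407 ± 110. Like AT4G33550 it was thus higher in roots than in shoots at 0.5 h, and its shoots came near its roots by 24 h. AT5G05960, the other riser, was 1.78 ± 0.18 higher in shoots (2.4e-07) and 0.53 ± 0.18 in roots (0.0276). At 6 h AT5G05960 had been lower in roots (-0.64 ± 0.18, limma adjusted p = 0.012), at 456 ± 117 units beside 707 ± 57.0 at 0.5 h. None of the 4 passed as lower in shoots, where AT5G13900 was dim and AT5G48490 had been selected on its fall.

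Both tested type 2 genes rose in each tissue at 24 h, beside the same 25.4% and 17.0% of all tested probe sets. AT1G48750 rose by 3.10 ± 0.24 in shoots (SE; limma adjusted p = 9.78e-09), from 157 to 1408 units, and by 1.24 ± 0.24 in roots (0.000682), from 708 to 1695. Its root course was not a steady rise. At 3 h AT1G48750 was lower in roots by 1.09 ± 0.24 (limma adjusted p = 0.00416), at 347 ± 156 units (SD, n = 2). AT3G18280 rose by 2.52 ± 0.24 in shoots (8.06e-08) and by 0.99 ± 0.24 in roots (0.00305). The only type 1 gene tested beside AT5G01870 was AT2G18370, which rose in roots by 2.31 ± 0.32 (3.09e-05), from 392 ± 117 to 1934 ± 37.1 units, and was at 0.09 in shoots without passing.

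Of the 8 tested genes for lipid transfer proteins anchored to the membrane by a glycolipid, 2 rose and 2 fell in shoots and 1 rose and 1 fell in roots at 24 h, so that 50.0% and 25.0% were called beside 58.6% and 40.8% of all tested probe sets. AT3G22620 (2.54 ± 0.42, limma adjusted p = 5.33e-05; 1.89 and 3.19 on leaving out shoot replicate 1 or 2 of 24 h) and AT2G44300 (1.93 ± 0.21, 6.12e-07) rose in shoots. In roots AT3G58550 rose by 1.96 ± 0.25 (1.35e-05), from 412 to 1621 units. AT2G27130 fell in both tissues, by 1.02 ± 0.18 in shoots (limma adjusted p = 8.85e-05) and by 0.73 ± 0.18 in roots (0.00341). Its root call was lost without roots 0.5 h replicate 2 (-0.595). Of the 5 genes for 2S albumins 0 had a probe set naming 1 gene.

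Between tissues, 5 of the 22 other family genes were higher in both at 24 h, 4 lower in both, 2 higher in shoots without passing in roots, 3 lower in shoots without passing in roots and 2 higher in roots without passing in shoots. The remaining 6 passed in neither, and 0 moved in opposite directions. Several of these genes were dim throughout in roots or in shoots, where a test says little. AT5G55450 read at most 0.965 units in roots. In shoots AT2G48130 read at most 16.8 units, AT5G13900 at most 16.3 and AT3G58550 at most 26.5. The counts over both tissues are limited by this. Of all tested probe sets that rose in shoots 40.03% also rose in roots and 5.398% fell there, and of those that fell in shoots 43.9% also fell in roots and 6.76% rose. A gene that passed in one tissue only is not shown to differ between them.

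**Figure D4:**
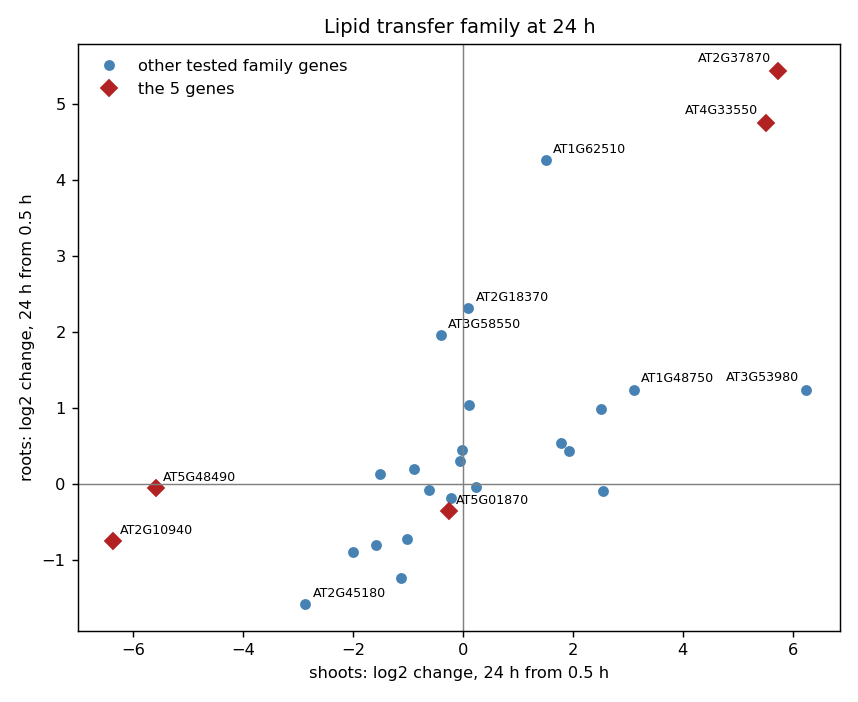
Change from 0.5 h to 24 h in shoots (horizontal axis) against roots (vertical axis), both in log2(signal + 7.72), for the 27 tested family genes; diamonds are the 5 selected genes, dots the other 22. AT2G37870 (5.73, 5.44) and AT4G33550 (5.51, 4.75) lie far out in both tissues. AT3G53980 (6.24, 1.23) lies far out mainly in shoots and AT1G62510 (1.501, 4.26) mainly in roots. AT2G10940 and AT5G48490 lie far to the left near 0 in roots. Both were dim in roots at every time, so a like fall could not show there.

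Genes that build the lipid barriers were scarcely readable beside these. Of 23 cuticle wax and cutin genes 1 was tested, and of 10 suberin genes 0 had a probe set naming 1 gene. The one tested was AT5G37300 (WSD1), for a wax ester synthase of the stem cuticle. It rose in shoots by 3.73 ± 0.22 at 24 h (SE; limma adjusted p = 4.01e-10), from 10.7 ± 7.28 to 229 ± 35.4 units (SD, n = 2). It had already risen by 2.31 ± 0.22 at 1 h (2.06e-06), when AT2G37870 and AT4G33550 had not passed in shoots. In roots AT5G37300 stayed below the added constant in its 0.5 and 24 h means (4.94 and 2.28) and did not pass (-0.34, 0.236).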

How the data were processed

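The deposited values were linear signal intensities per probe set, which the authors computed with the MAS5 algorithm, as the submitters' processing notes record; for its version and scaling target the entry is: not given in the sources used here. RNA was total RNA labelled with biotin, per the labels. Of 22810 probe sets, 64 controls were left out.

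From the deposited intensities log2(signal + 7.72) was taken, 7.72 being the 20th percentile of all signals. A probe set was tested if, on 2 arrays or more, it exceeded that array's 40th percentile, which kept 16814 and dropped 5932. Limma 3.58.1 in R 4.3.3 fitted 12 group means over 24 arrays with a variance trend (12 residual and 5.28 prior degrees of freedom). Each time was compared with 0.5 h within a tissue, with Benjamini-Hochberg adjustment over all tested probe sets and a threshold of 0.05. The fit was tested on simulated data.

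The members and gene lists were chosen with earlier results of these data known. Apart from the 5 members, the rule named up to 5 family genes and 3 cuticle or suberin genes each way per tissue, called at 24 h with groups that did not overlap, the 3 nearest profiles to each member, and the markers. AT5G05960, the shoot values of AT1G62510 and AT2G27130, the root values of AT3G18280 and the 3 h root value of AT1G48750 were added after their values were seen. Genes were named from the platform annotation and the TAIR10.1 gene table, with no coordinates, since the build of the files is not named. No probe or gene sequence was used here.

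Alternatives were another scaling (median, quantile), another or no pseudocount, another or no filter, no variance trend, one tissue alone, replicate number as a block, and each array left out. A family list built from gene descriptions was not run, since the gene table holds none. Deviations of same-numbered samples from their group means correlated from -0.165 to 0.348 (median 0.00696) over 66 pairs of groups. Roots and shoots of the same time were not looked at apart. The check therefore does not settle whether the numbers pair the samples.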

Additional observations from a re-analysis of the deposited data

How the results depend on the processing

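The rises of AT2G37870 and AT4G33550 in shoots at 24 h passed under every alternative tried, with ranges over left-out arrays of 5.615 to 5.842 and 5.378 to 5.634. For AT2G10940 in roots at 24 h the change of -0.76 was past the threshold with root arrays alone, on signals below the constant. For AT5G48490 in roots at 24 h, without a call, the sign turned under median scaling (0.049) and quantile normalization (0.091), and left-out arrays gave -0.162 to 0.042. For AT5G01870, left-out arrays gave -0.216 to 0.247 in shoots at 12 h and -0.242 to 0.257 in roots at 1 h, where quantile normalization gave -0.076. The cause was not tested.

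Family calls at 24 h ran from 16 to 18 in shoots (main 18) and from 8 to 12 in roots (main 13) over left-out arrays. Beside the 5 members they ran from 12 to 14 (main 14) and from 6 to 10 (main 11); these last counts, and the alternatives for named family genes, were chosen after seeing the data. With the replicate block, the counts beside the 5 members stayed at 14 and 11, and no call on a member changed. Of 581 alternatives for tested genes, 545 kept direction and call, 22 lost the call, 9 gained it and 5 turned sign without a call. Signals below 7.72, as for AT2G10940 in roots, carry no order, and 2 arrays a group limit every value.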

Other observations

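The family list also held genes that were measured but too dim to test. Of the 48 family genes with a probe set naming 1 gene, 21 were left out by the filter on low signal, and their highest signal on any array was 32.9 units, for AT4G12500 in shoots, whose median over the 12 shoot arrays was 4.24. AT1G73780, a type 2 gene, ran from 11.9 to 28.4 units in roots and from 0.495 to 7.54 in shoots, so that every root array lay above every shoot array. AT5G55450, of the small kind, was tested, with 53.3 to 442 units in shoots and 0.305 to 0.965 in roots, the latter all below the constant. It rose in shoots at 12 h by 1.51 ± 0.50 (SE; limma adjusted p = 0.0162) and at 24 h was at 0.23 without passing (0.706). AT5G13900, also of the small kind, rose in roots by 1.69 ± 0.20 at 3 h (limma adjusted p = 2.48e-05), from 108 to 362 units, and was at 0.30 at 24 h without passing (0.256). These genes were picked after their values were seen.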
